A study of Mus musculus with 9 samples.

Results

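The comparison of code C-20 with code NTC rested on 6 of 9 RNA-seq libraries of 4T1 cells, a mouse mammary carcinoma line, with 3 libraries for each code. Members were chosen by the description of each library, which holds a leading number (1, 2 or 4), a position and a code, and libraries with the same leading number were paired. The leading number follows the title: 1 is titled control, 2 is titled clone 2 and 4 is titled clone 3, so each pair holds 1 NTC and 1 C-20 library of the same title. Cells titled control had a control plasmid, and clones 2 and 3 are stable lines with a plasmid for miR-204-5p, each derived as 1 clone, whose miR-204-5p the labels give as 150-fold and 525-fold of control. The titles also number the libraries, with NTC as replicate 1, C-20 as replicate 2 and C-26 as replicate 3 of each title. The labels attach miR-204-5p to the titles and do not say what NTC, C-20 and C-26 stand for. Whether a treatment lies behind the C-20 comparison is therefore not known here. All cells were grown in medium with 10% serum, and Zeocin selection is stated at 100 mg/ml. Each title and code occur together in 1 library, and separate cultures are not stated, so p-values measure the spread that remains between these libraries after title and code.

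MicroRNAs are short RNAs that pair with messenger RNAs through a seed at their 5′ end and lower the stability or translation of the messenger. In mouse, miR-204 lies within an intron of Trpm3, an ion channel gene. The genes described below belong to processes known from carcinoma cells: secreted ligands and chemokines that act on vessels and leukocytes, actin-binding proteins that shape the cell, enzymes that detoxify reactive compounds, and Txnip, an arrestin-family protein that limits glucose uptake and binds thioredoxin. Sequences of 2 microRNAs are given first, one because the titles rest on it and one because its loci were the only genes called between C-20 and C-26. They are RefSeq mature sequences on GRCm38.p6, 5′ to 3′, with the seed (bases 2 to 8) in capitals. The first lies at chr19:22750610-22750631 on the plus strand. The second has identical copies at chr3:95139131-95139151 on the minus strand and chr12:93927373-93927393 on the plus strand. The seeds differ.
mmu-miR-204-5p: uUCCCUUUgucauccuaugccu
mmu-miR-8099: cCAAGGCGugggaaagguugu

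The values are FPKM (fragments scaled by transcript length and by the mapped fragments of the library), tested as log2(FPKM + 1), a scale that understates changes of low genes. Of 24067 genes listed, 10783 reached an FPKM of 1 in at least 3 of the 9 libraries and were tested with limma, with the leading number as block and p-values adjusted by Benjamini-Hochberg over all of them. Differences are C-20 minus NTC unless stated. Libraries are given in the order control, clone 2, clone 3. Read counts were not used here, so depth is unknown. Genes above 0 numbered 15621, 15137 and 15002 in NTC and 17567, 16923 and 15261 in C-20. Of 1453 olfactory and vomeronasal receptor genes, which mammary cells are not known to express, 3.44%, 2.55% and 1.72% were above 0 in NTC and 9.36%, 6.81% and 1.03% in C-20. The share was thus higher in C-20 in the control and clone 2 pairs and lower in the clone 3 pair. Its part in the results below was not tested. Poly(A) libraries are not made to capture mature microRNAs. Mir204 was listed at 0 in all 9 libraries, and Trpm3 was at or under 0.0782 FPKM in the 6 libraries, so neither checks the labels.

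**Figure D1:**
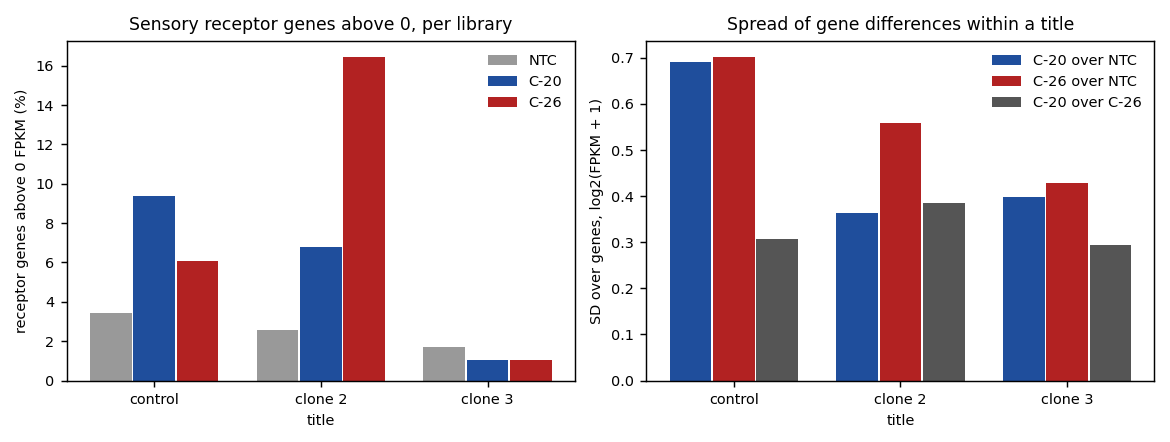
Left, the share of 1453 sensory receptor genes above 0 FPKM in each library, by title and code. Right, the SD over 10783 genes of the within-title difference in log2(FPKM + 1) for each pair of codes; the control title had an SD of 0.690 for C-20 over NTC and 0.306 for C-20 over C-26.

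Against NTC, 33 genes (0.306% of those tested) changed in C-20, 19 higher (0.176%) and 14 lower (0.13%). The 19 were Mgp, Xlr, Mcpt8, Igsf8, Eya2, 2310001H17Rik, Id2, Gsta4, Nptx1, Akr1c12, Gsn, Eml1, Dact2, Fbxo2, Lbh, Lcp1, Trib2, Ngef and Atp2c2. The 14 were Txnip, Ccl20, Igfbp7, Edn1, Ctsw, Nnmt, Ecscr, Cav1, Pdgfb, Ank2, Fgf21, Birc3, Rhox5 and Wdr43. Their median absolute log2 difference was 1.34, and the median difference of all tested genes was −0.01. At an unadjusted p under 0.05, 2259 tested genes (20.9%) differed, and 48.9% of tested genes had a positive difference. All 33 went 1 way in the 3 pairs, as did 4468 genes (41.4%) of those tested; the blocked test favours genes with like differences in the pairs, so this is a description of the calls. Groups did not overlap for 31 of the 33, where 1170 tested genes (10.9%) had groups apart, 4.7% with C-20 higher and 6.15% with C-20 lower. The other two were Wdr43 and Fgf21. Without the block 2 genes were called (0.0185%), Igfbp7 and Ecscr. The count depended on single libraries: it was 1 (Txnip) without the C-20 library titled clone 3, 3 (Igsf8, Igfbp7 and Txnip) without the NTC library titled clone 2, 13 without the C-20 library titled control, 66 without the C-20 library titled clone 2 and 111 without the NTC library titled control. Ecscr, Edn1 and Cav1 passed the filter only through the NTC libraries, where they were high, so they had to differ. Their values are given as a description, and 30 calls are left without them. Rhox5 had no C-20 library at 1 FPKM, and Trib2, Ngef and 2310001H17Rik no NTC library, so their passing also rested on the codes where they were high.

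**Figure D2:**
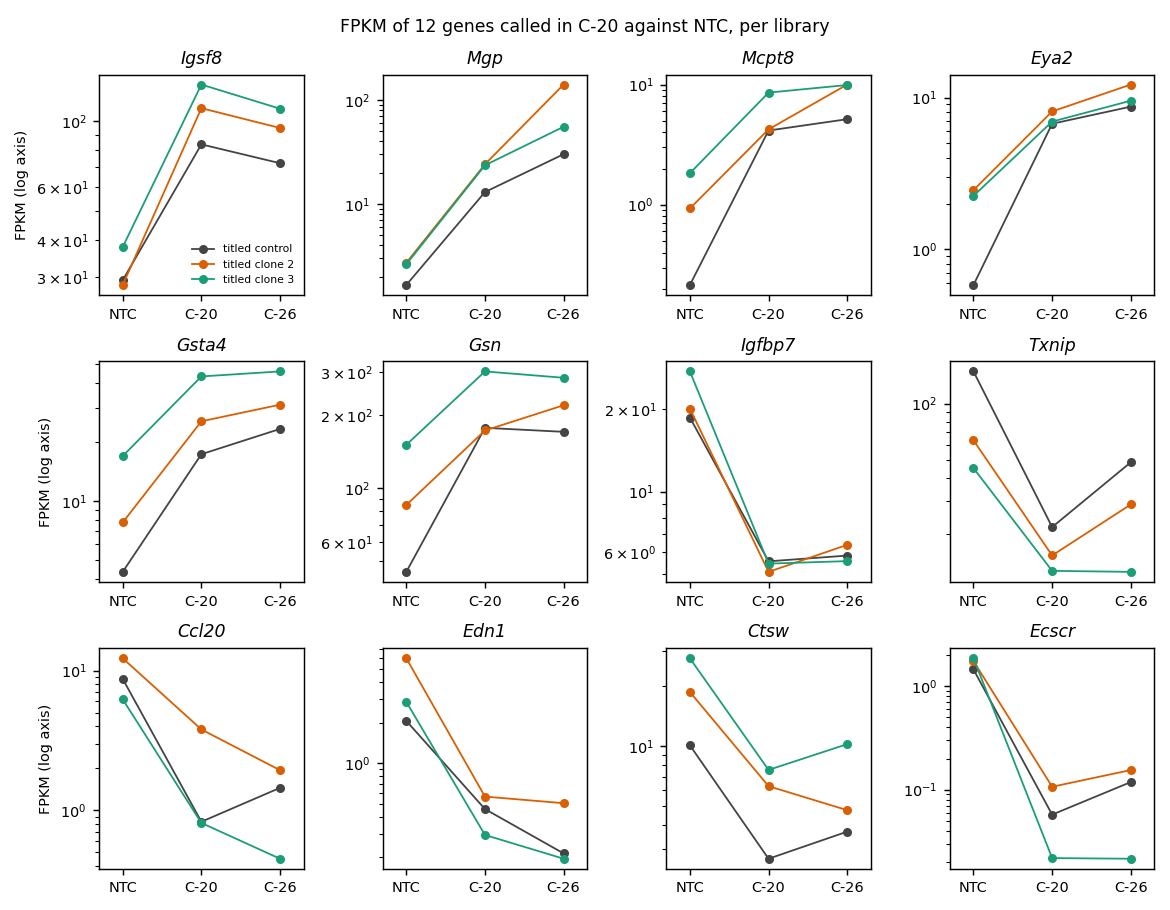
FPKM (log axis) of 12 called genes in each library, by code, with lines joining the libraries of 1 title. In each of the 12 panels the 3 C-20 points lie on the same side of their NTC partners; Igfbp7 sat between 5.09 and 5.57 in C-20 and between 18.6 and 27.5 in NTC.

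The lower genes included Igfbp7, Ccl20, Edn1, Pdgfb and Fgf21, which encode secreted proteins. Igfbp7 (chr5:77349240-77408045), a secreted protein of the insulin-like growth factor binding family, was at 18.6, 20.1 and 27.5 FPKM in NTC and 5.57, 5.09 and 5.46 in C-20. The C-20 libraries lay close together, with a mean of 5.37 ± 0.25 (SD, n = 3) against 22.1 ± 4.74 (SD, n = 3) in NTC. The log2 difference was −1.84, SE 0.17, adjusted p = 0.00462, and the call was lost without the C-20 library titled clone 3. Ccl20 (chr1:83116766-83119167), the chemokine ligand of CCR6 on lymphocytes and dendritic cells, was at 8.71, 12.2 and 6.22 FPKM in NTC and 0.825, 3.78 and 0.809 in C-20. The C-20 library titled clone 2 kept the highest Ccl20 of its group, still below every NTC library, and the log2 difference was −1.96, SE 0.21, adjusted p = 0.00551. Edn1, which encodes the vasoconstrictor endothelin-1, was at 2.06, 6 and 2.85 FPKM in NTC and below 1 in every C-20 library, at 0.456, 0.564 and 0.293. Its log2 difference was −1.60, with the limit of the filter named above. Pdgfb, a platelet-derived growth factor chain that acts on pericytes and fibroblasts, was at 19.97, 13.4 and 18.4 FPKM in NTC and 6.8, 5.6 and 9.56 in C-20, a log2 difference of −1.14, SE 0.19, adjusted p = 0.0494. Fgf21, an endocrine fibroblast growth factor, was at 1.33, 2.86 and 2.13 FPKM in NTC and 0, 1.5 and 0.263 in C-20. The clone 2 C-20 value exceeded the lowest NTC value, so the Fgf21 groups overlapped, and the log2 difference was −1.05, SE 0.17, adjusted p = 0.045.

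Mgp (chr6:136872435-136875823), matrix Gla protein, an inhibitor of calcification of the matrix, was at 1.67, 2.72 and 2.63 FPKM in NTC and 13.03, 24.1 and 23.6 in C-20. This was the largest positive log2 difference among the called genes, 2.64, SE 0.29, adjusted p = 0.00551, and the mean FPKM ratio was 8.64. Nptx1, a neuronal pentraxin, was at 3.79, 7.42 and 14.02 FPKM in NTC and 16.1, 24.9 and 33.4 in C-20. Every Nptx1 value in C-20 was above every NTC value, with a log2 difference of 1.55, SE 0.21, adjusted p = 0.0131. Of 12 angiogenic ligands and related genes tested, 2 were called lower (Pdgfb, and Edn1 with its limit) and 0 higher, against 0.306% called of all tested genes. Of the 12, 5 had a positive difference, 8 had an unadjusted p under 0.05 (limma, 20.9% of all tested genes) and the median difference was −0.31. Angptl2 was nearest to a call of those not called, with a positive difference of 1.11, SE 0.19, adjusted p = 0.0532. Vegfa, the main vascular endothelial growth factor, was not called at 53.1, 41.2 and 25.4 FPKM in NTC and 9.4, 32.9 and 12.3 in C-20 (log2 difference −1.23, SE 0.31, adjusted p = 0.0985). Angptl6 had the largest difference of those not called, −1.60 (adjusted p = 0.14), though it was higher in C-20 in the clone 2 pair. Of 16 chemokines and cytokines tested, Ccl20 alone was called, and the list's median was 0.15. Cx3cl1, a membrane-bound chemokine, had a positive difference that did not pass, 1.10, SE 0.26, adjusted p = 0.0832. In the 9 tested genes of the insulin-like growth factor axis, Igfbp7 was the single call and the median was −0.06; Igf2bp1, an RNA-binding protein, was at −0.82 (adjusted p = 0.0564).

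Among membrane proteins, Igsf8 (chr1:172312367-172319843), an immunoglobulin-domain partner of tetraspanins, had the lowest adjusted p of the comparison. It was at 29.3, 28.3 and 37.9 FPKM in NTC and 83.4, 110.2 and 132 in C-20. Each C-20 library was above 80 FPKM and each NTC library below 40, and the log2 difference was 1.73, SE 0.15, adjusted p = 0.00392. Cav1, the scaffold protein of caveolae, was at 1.08, 2.41 and 2.2 FPKM in NTC and 0.0535, 0.213 and 0.262 in C-20 (log2 difference −1.27, with the same limit of the filter). Ecscr, a membrane protein known from endothelial cells, was at 1.46, 1.76 and 1.87 FPKM in NTC and 0.0573, 0.107 and 0.0218 in C-20. It was near 0 in every C-20 library, and its log2 difference was −1.34, again with that limit. Ank2, an ankyrin that ties membrane proteins to the spectrin skeleton, fell from 2.93, 3.28 and 2.49 FPKM to 0.747, 1.09 and 0.644 FPKM (log2 difference −1.10, SE 0.15, adjusted p = 0.0177). Atp2c2, a Golgi calcium and manganese pump, rose from 1.63, 3.66 and 3.95 FPKM to 5.83, 7.53 and 8.03 FPKM, close to the threshold (log2 difference 1.04, SE 0.18, adjusted p = 0.0494). 

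Of 24 actin-binding genes tested, 2 were called higher and 0 lower, against 0.306% called of all tested genes. Of the 24, 3 had a negative difference, 8 had an unadjusted p under 0.05 (limma, 20.9% of all tested genes) and the median was 0.34. Gsn, gelsolin, which severs and caps actin filaments, was at 45.1, 85 and 150.5 FPKM in NTC and 177, 172 and 302 in C-20. The NTC library titled clone 3 came nearest to the C-20 range, and the log2 difference was 1.32, SE 0.21, adjusted p = 0.0394. Lcp1, the actin-bundling L-plastin, was at 5.54, 9.15 and 10.1 FPKM in NTC and 15.8, 21.2 and 23.95 in C-20, with no overlap (log2 difference 1.22, SE 0.16, adjusted p = 0.011). The largest difference in the list belonged to Crip1, which was not called: 50.8, 57.7 and 249.7 FPKM in NTC, 433, 134 and 580.5 in C-20 and a log2 difference of 1.83, SE 0.46, adjusted p = 0.0954. Add2, an adducin of the membrane skeleton, was likewise not called at 1.36, SE 0.26, adjusted p = 0.0564. Beyond the list, the microtubule-associated protein Eml1 rose from 0.688, 1.17 and 1.28 FPKM to 4.11, 3.7 and 3.69 FPKM (log2 difference 1.25, SE 0.18, adjusted p = 0.0236). Ngef, an exchange factor for small GTPases, rose from 0.149, 0.778 and 0.77 FPKM to 1.44, 2.79 and 2.48 FPKM (log2 difference 1.05, SE 0.16, adjusted p = 0.0339).

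Txnip (chr3:96557957-96561857) was the one gene called in all 9 fits that left out a library. It was not called without the block, nor in the fit without the libraries titled clone 3. It was at 149, 63.4 and 44.9 FPKM in NTC and 21.7, 15.2 and 12.6 in C-20, so the highest C-20 value was below the lowest NTC value although the NTC libraries differed widely among themselves. The log2 difference was −2.16, SE 0.22, adjusted p = 0.00551, with a range of −2.43 to −1.90 when single libraries were left out. Of 22 tested genes of the Txnip, glucose uptake and glycolysis list, Txnip alone was called, against 0.306% of all tested genes. A positive difference was seen in 15 of the 22, against 48.9% of all tested genes, and the median was 0.23. Arrdc4, an arrestin-domain relative of Txnip that responds to glucose in the same manner, was at 13.9, 11.01 and 4.78 FPKM in NTC and 3.48, 5.39 and 2.54 in C-20. Each pair had less Arrdc4 in C-20, and the difference missed the threshold (−1.12, SE 0.22, adjusted p = 0.0564). Slc2a1, the main glucose transporter of such cells, had a positive difference that did not pass, 0.67 (adjusted p = 0.24).

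The Txnip promoter is shown because this gene is a known target of the glucose-sensing factor MondoA, and the Ccl20 promoter because this chemokine is a known target of NF-kB. Both are RefSeq promoters on GRCm38.p6, plus strand, from 250 bases before to 50 bases after the gene's start, at chr3:96557707-96558006 and chr1:83116516-83116815. Capitals mark the letters fixed by the motif searched, on both strands.
Txnip promoter: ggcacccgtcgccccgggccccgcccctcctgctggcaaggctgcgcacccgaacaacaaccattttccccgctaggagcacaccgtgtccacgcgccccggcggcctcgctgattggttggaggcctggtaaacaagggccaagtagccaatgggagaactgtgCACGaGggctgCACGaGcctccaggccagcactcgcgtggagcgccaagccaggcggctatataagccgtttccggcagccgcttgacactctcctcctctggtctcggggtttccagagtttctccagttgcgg
Ccl20 promoter: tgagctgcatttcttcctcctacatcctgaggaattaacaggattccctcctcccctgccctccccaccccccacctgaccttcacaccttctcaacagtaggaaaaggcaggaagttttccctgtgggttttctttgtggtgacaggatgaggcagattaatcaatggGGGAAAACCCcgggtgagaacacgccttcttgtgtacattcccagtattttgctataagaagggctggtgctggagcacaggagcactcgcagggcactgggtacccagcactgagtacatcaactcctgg
The Txnip window held 1 match to the pattern of a carbohydrate response element, a pair of CACGNG half-sites with 5 bases between them, which began 85 bases before the start. That pattern was present in 16 of 32851 mouse promoters of this length (0.0487%) and in 9 of 8682 promoters of tested genes (0.104%). The Arrdc4 promoter held 0 matches to it. The Ccl20 window held 1 match to a kB-type pattern, the 10 letters in capitals, which began 81 bases before the start. It was held by 40 of 32851 promoters (0.122%) and by 15 of 8682 promoters of tested genes (0.173%). The pattern was 1 fixed string with no open position. These shares count that string and not kB sites at large, so the match is a description and no support. Of the 33 called genes, 24 had a promoter in the table. Of these 24, Txnip alone matched the first pattern and Ccl20 alone the second. The shorter patterns were found in 2 (CACGTG, in 7.15% of all promoters and 12.3% of those of tested genes), 1 (TGANTCA, 7.81% and 6.14%) and 2 (TGACNNNGC, 12.4% and 17.3%) of the 24. CACGTG can fall within a half-site of the first pattern. A match describes letters and is no measured binding.

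The calls also included the enzymes Gsta4, Akr1c12 and Nnmt. Gsta4, a glutathione transferase that acts on lipid peroxidation products, was at 4.35, 7.77 and 16.96 FPKM in NTC and 17.3, 25.5 and 43.3 in C-20. The clone 3 libraries were the highest within each code, and the log2 difference was 1.56, SE 0.17, adjusted p = 0.00551. Akr1c12, an aldo-keto reductase, rose from 1.99, 1.62 and 2.14 FPKM to 6.32, 6.17 and 7.29 FPKM (log2 difference 1.38, SE 0.23, adjusted p = 0.0449). It has close paralogs, among them Akr1c13 at a log2 difference of 0.66 (adjusted p = 0.11), between which reads may be split. In the NRF2, glutathione and aldo-keto reductase list, 26 genes were tested. Gsta4 and Akr1c12 were called higher and 0 were called lower, against 0.306% called of all tested genes. Of the 26, 21 had a positive difference (48.9% of all tested genes), and the median was 0.34. Nqo1 and Hmox1, well-known targets of NRF2, were at 0.60 (adjusted p = 0.36) and 0.07 (adjusted p = 0.80). Nnmt, which methylates nicotinamide, fell from 3.09, 4.73 and 4.17 FPKM to 0.16, 1.64 and 1.17 FPKM (log2 difference −1.40, SE 0.20, adjusted p = 0.0211).

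A pair of proteases known from leukocytes moved in opposite directions. Mcpt8, a granule protease of mouse basophils, was at 0.215, 0.93 and 1.83 FPKM in NTC and 4.14, 4.23 and 8.57 in C-20 (log2 difference 1.76, SE 0.20, adjusted p = 0.00567). Ctsw, cathepsin W, known from cytotoxic lymphocytes, was at 10.1, 18.7 and 27.7 FPKM in NTC and 2.69, 6.26 and 7.56 in C-20 (log2 difference −1.59, SE 0.18, adjusted p = 0.00567). Groups did not overlap for either gene. In bulk RNA, a change in the number of cells of a type and one in RNA per cell cannot be told apart. Of 22 leukocyte markers 4 were tested, with 1 called higher (Mcpt8) and 1 called lower (Ctsw), against 0.306% called of all tested genes. The summed level of the whole list was 18.0 to 39.8 FPKM in NTC and 18.0 to 28.8 in C-20. Ctsw alone, at 10.1, 18.7 and 27.7 FPKM, was most of the sum in NTC. Ptprc, the pan-leukocyte marker CD45, was at most 0.0497 FPKM in the 6 libraries and Cd3e was 0. Of 12 endothelial markers 3 were tested, with Ecscr the single call, subject to the filter's limit above, and the list summed to 12.6 to 23.8 FPKM in NTC and 18.4 to 22.5 in C-20. Pecam1 and Cdh5, which define endothelium, were at most 0.121 and 0.052 FPKM. Of 14 fibroblast markers 2 were tested and 0 called. Their list summed to 52.7 to 133.6 FPKM in NTC and 64.4 to 103.7 in C-20. Most of this was Fbln2, at 51.04, 121.1 and 129.8 FPKM in NTC and 59.27, 96.54 and 78.15 in C-20. Dcn was at most 0.144 FPKM. Carcinoma markers were present in the 6 libraries: the 8 markers, Krt8, Krt18 and Epcam among them, summed to 389.9, 922.2 and 1221 FPKM in NTC and 1048, 1098 and 1597 in C-20, with 0 called.

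The remaining calls included regulators of transcription and signalling. Eya2, a transcriptional coactivator with phosphatase activity, was at 0.583, 2.46 and 2.25 FPKM in NTC and 6.72, 8.1 and 6.94 in C-20 (log2 difference 1.66, SE 0.21, adjusted p = 0.011). Id2, a helix-loop-helix protein without a DNA-binding region that blocks its partners, was at 2.35, 3.97 and 2.29 FPKM in NTC and 18.8, 8.66 and 6.42 in C-20. The C-20 library titled control was more than 2-fold above the other two, and the log2 difference was 1.57, SE 0.27, adjusted p = 0.0494. Its relatives Id1 and Id3 had log2 differences of 1.16 (adjusted p = 0.0995) and 1.02 (adjusted p = 0.12), and neither was called. In the TGF-beta, BMP and Id list, 1 of 26 tested genes was called higher (Id2) and 0 lower (0.306% called of all tested genes). Of the 26, 10 had a positive difference (48.9% of all tested genes), and the median was −0.17. Lbh, a transcription cofactor known from mammary basal cells, rose from 2.24, 4.71 and 4.12 FPKM to 6.19, 15.9 and 9.23 FPKM (log2 difference 1.24, SE 0.18, adjusted p = 0.0273). Trib2, a pseudokinase, rose from 0.373, 0.292 and 0.654 FPKM to 2.17, 2.35 and 1.96 FPKM (log2 difference 1.14, SE 0.17, adjusted p = 0.0302). Dact2, which binds Dishevelled, rose from 3.71, 2.98 and 6.46 FPKM to 9.29, 12.5 and 12.6 FPKM (log2 difference 1.25, SE 0.19, adjusted p = 0.0339).

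Birc3, an inhibitor of apoptosis protein and ubiquitin ligase, fell from 2.76, 3.22 and 2.96 FPKM to 1.25, 0.575 and 1 FPKM (log2 difference −1.05, SE 0.16, adjusted p = 0.0339). It was the single call among 20 tested genes of the NF-kB list (0.306% called of all tested genes), whose median was −0.15. Fbxo2, the sugar-binding part of an SCF ubiquitin ligase, rose from 7.98, 13.9 and 15.7 FPKM to 32.1, 23.7 and 35.1 FPKM (log2 difference 1.24, SE 0.21, adjusted p = 0.0494). Wdr43, a ribosome biogenesis factor, was at 142, 153 and 76.1 FPKM in NTC and 59.5, 88.9 and 41.5 in C-20 (log2 difference −0.96, SE 0.15, adjusted p = 0.0384). Its groups overlapped, since the C-20 library titled clone 2 was above the NTC library titled clone 3. The X-linked genes Xlr and Rhox5 moved in opposite directions. Xlr, of a lymphocyte-regulated multigene family, was at 5.64, 3.83 and 1.24 FPKM in NTC and 24.9, 19.7 and 6.77 in C-20 (log2 difference 1.96, SE 0.26, adjusted p = 0.0131). Rhox5, a homeobox gene known from the reproductive tract, was at 0.859, 1.3 and 2.48 FPKM in NTC and 0.228, 0.127 and 0.389 in C-20 (log2 difference −0.98, SE 0.17, adjusted p = 0.0494). Both belong to families of similar copies, between which reads may be split. The long noncoding RNA 2310001H17Rik (chr6:129232623-129238482) was at 0.519, 0.486 and 0.84 FPKM in NTC and 2.63, 3.27 and 6.74 in C-20 (log2 difference 1.62, SE 0.19, adjusted p = 0.00729).

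On GRCm38.p6, 14 of the 33 called genes overlapped another RefSeq gene, and the sources used here do not say whether strand was used, so reads of such partners cannot be told apart. The partners were Gm15441 for Txnip, Polr2b and Gm34648 for Igfbp7 and Fibp for Ctsw, 3 cases chosen after the values were seen. No values are given here for Gm15441 and Gm34648. Polr2b had a difference of −0.14 (adjusted p = 0.60) and Fibp one of 0.38 (adjusted p = 0.43).

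**Figure D3:**
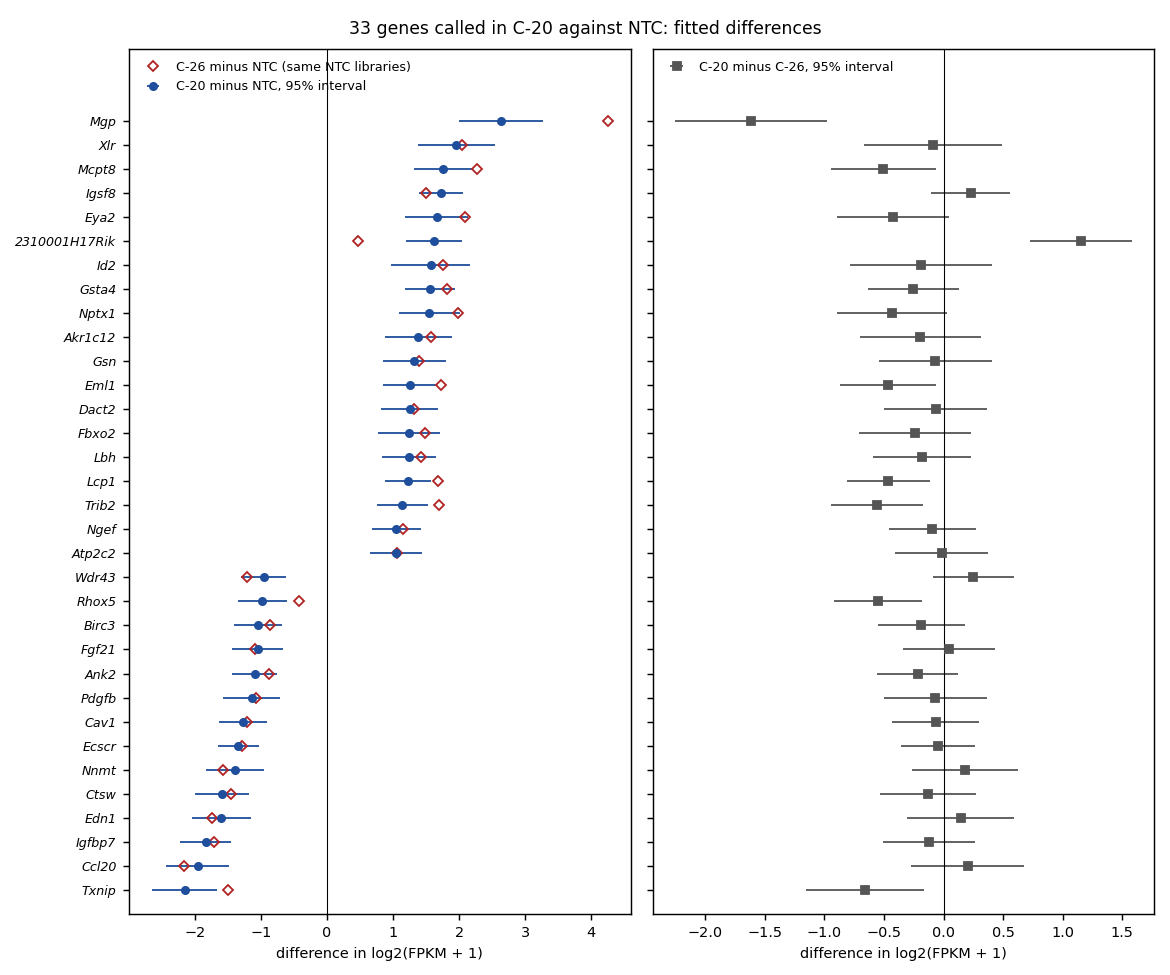
Left, fitted differences in log2(FPKM + 1) with 95% intervals for C-20 minus NTC and points for C-26 minus NTC, for the 33 called genes; right, C-20 minus C-26 with 95% intervals. On the right, 25 of the 33 intervals span 0.

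The direct comparison with C-26, the other code, came from the same fit. It called 2 genes (0.0185%), both lower in C-20, and 357 genes (3.31%) had an unadjusted p under 0.05. The pair was Mir8099-1 and Mir8099-2, the precursor loci of the second microRNA printed above, which were listed at 0 in every NTC and C-20 library. In C-26 each was at 3.42, 3.13 and 3.49 FPKM. They passed the filter only through the C-26 libraries, so they had to differ, and the log2 difference of −2.12 for each is a description whose size depends on the pseudocount. Their values were identical, so the copies, each 127 nt in RefSeq, cannot be told apart. Mir8099-1 (chr3:95139060-95139186) lies within the interval of Lysmd1, whose difference between C-20 and C-26 was −0.03 (adjusted p = 0.999). Mir8099-2 lies at chr12:93927338-93927464 and overlaps Gm9726, for which no value is given here.

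Of the 33 genes, 0 were called between C-20 and C-26 in limma, and 8 had a 95% interval off 0 (an unadjusted p under 0.05). Mgp was at 30.1, 141 and 55.3 FPKM in C-26, above its C-20 partner in each title, with a log2 difference of C-20 from C-26 of −1.62 (95% interval −2.25 to −0.98, adjusted p = 0.366). For 2310001H17Rik the order was the other way, with 1.04, 1.22 and 1.41 FPKM in C-26, below every C-20 library, and a difference of 1.15 (0.73 to 1.58, adjusted p = 0.33). Txnip was at 48.3, 28.7 and 12.4 FPKM in C-26, higher than C-20 in the control and clone 2 titles and about level in clone 3 (difference −0.66, −1.16 to −0.16). Rhox5 in C-26 was at 0.531, 0.837 and 1.15 FPKM, above its C-20 partner in each title (difference −0.55, −0.92 to −0.18). The other four were Trib2 (−0.56), Mcpt8 (−0.51), Eml1 (−0.47) and Lcp1 (−0.46), each lower in C-20 than in C-26. For the 25 genes whose interval spanned 0, the bounds leave room for differences: Igsf8 was at 0.23 (−0.10 to 0.56), Igfbp7 at −0.12 (−0.51 to 0.27) and Xlr at −0.09 (−0.67 to 0.49). Beside the C-20 values against the same NTC libraries, C-26 minus NTC was 4.25 for Mgp, −1.72 for Igfbp7, 1.496 for Igsf8, −1.498 for Txnip, −2.16 for Ccl20 and 0.46 for 2310001H17Rik, and the plot of fitted differences shows the others.

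The 3 pairs did not contribute alike. In the control pair 977 genes were at least 2-fold higher and 473 at least 2-fold lower in C-20 on the log2(FPKM + 1) scale, and the SD of the difference over genes was 0.690. In the clone 2 pair these were 71 and 77 genes with an SD of 0.364, and in the clone 3 pair 43 and 117 genes with an SD of 0.398. Within the control title, C-26 minus NTC had an SD of 0.702 and C-20 minus C-26 one of 0.306, so the NTC library was the one that stood apart there. There is 1 pair a title, so these contrasts between titles have no replicate and no test.

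**Figure D4:**
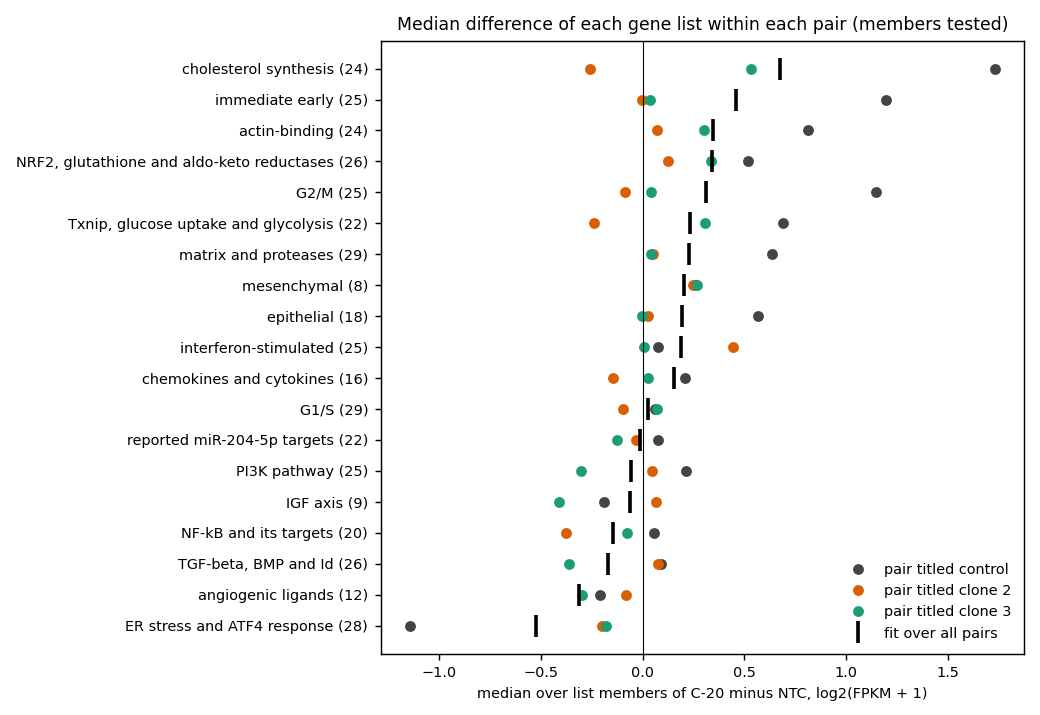
Median over the tested members of each gene list (number in brackets) of C-20 minus NTC in log2(FPKM + 1), within each pair and in the fit over all pairs. For cholesterol synthesis the control pair was at 1.73, the clone 2 pair at −0.26 and the clone 3 pair at 0.53.

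Gene list medians also differed by pair. Cholesterol synthesis genes, from the mevalonate pathway through lanosterol to cholesterol, had a median difference of 0.67 in the fit, with 24 of 24 tested genes positive (48.9% of all tested genes), 0 called and 9 at an unadjusted p under 0.05 (limma; 20.9% of all tested genes). By pair the median was 1.73 (24 of 24 positive) in control, −0.26 (5 of 24) in clone 2 and 0.53 (23 of 24) in clone 3. Insig1, a sterol-sensing regulator of the pathway, was at 5.71, 7.37 and 23.4 FPKM in NTC and 37.6, 5.27 and 33.8 in C-20. Insig1, picked after its values were seen, was higher in C-20 in the control and clone 3 pairs and lower in the clone 2 pair. Mvd, mevalonate diphosphate decarboxylase, was nearest to a call at 1.21, SE 0.22, adjusted p = 0.0564 and was higher in C-20 in each pair.

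Genes of the ER stress and ATF4 response had a median of −0.52, with 1 of 28 called lower (Fgf21) and 0 called higher. The share called of all tested genes was 0.306%. A positive difference was seen in 7 of the 28, against 48.9% of all tested genes. By pair the median was −1.14, −0.20 and −0.18 in control, clone 2 and clone 3. Trib3, a pseudokinase induced by ATF4, was at 183, 218 and 170.4 FPKM in NTC and 17.1, 187 and 80.2 in C-20, with the drop largest in the control pair (log2 difference −1.55, SE 0.48, adjusted p = 0.124). Ddit3, the stress factor CHOP, was at 41.1, 92.7 and 71.6 FPKM in NTC and 12.9, 44.3 and 25.7 in C-20 (log2 difference −1.36, SE 0.25, adjusted p = 0.0564). G2/M genes had 0 of 25 called (2 at an unadjusted p under 0.05, against 20.9% of all tested genes, as for the lists that follow) and a median of 0.31, with pair medians of 1.15 in control, −0.09 in clone 2 and 0.04 in clone 3. Without the libraries titled control the fitted median was −0.03. Immediate early genes had 0 of 25 called (9 at an unadjusted p under 0.05) and a median of 0.46, with pair medians of 1.20, −0.003 and 0.04, and without the libraries titled control it was −0.02. The immediate early member with the lowest adjusted p, Myc, had a negative difference: it was at 432, 554 and 310.4 FPKM in NTC and 88.4, 292 and 139 in C-20, with groups apart (log2 difference −1.45, SE 0.26, adjusted p = 0.0564). Interferon-stimulated genes had their highest median in clone 2, with 0 of 25 called (5 at an unadjusted p under 0.05), a median of 0.19 and pair medians of 0.07, 0.44 and 0.004.

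The matrix and protease list had 1 of 29 called higher (Mgp) and 1 called lower (Ctsw), against 0.306% called of all tested genes. Its median was 0.23. At an unadjusted p under 0.05 in limma it had 16 of 29 genes, against 20.9% of all tested genes. Other lists with a call had 13 of 28 (ER stress and ATF4), 11 of 26 (NRF2) and 11 of 26 (TGF-beta). Chemokines and cytokines had 7 of 16, the Txnip and glycolysis list 6 of 22, the insulin-like growth factor axis 4 of 9 and NF-kB genes 3 of 20. Mmp10, stromelysin-2, was not called at 0.123, 0.789 and 1.54 FPKM in NTC and 6.06, 3.24 and 6.28 in C-20 (log2 difference 1.81, SE 0.33, adjusted p = 0.0564). Mmp3, stromelysin-1, was likewise not called, 1.52, SE 0.30, adjusted p = 0.0632, with groups apart. Epithelial genes (18 tested, median 0.19), mesenchymal genes (8 tested, 0.20), G1/S genes (29 tested, 0.02), PI3K genes (25 tested, −0.06) and reported targets of miR-204-5p (22 tested, −0.02) had 0 called each in limma; at an unadjusted p under 0.05 they had 6, 3, 5, 8 and 5, against 20.9% of all tested genes. In the epithelial list Krt8 was at 0.97, SE 0.38, adjusted p = 0.187 and Jup, plakoglobin, at 1.02, SE 0.21, adjusted p = 0.068. Vim, vimentin, was at 219, 928 and 1365 FPKM in NTC and 1357, 1251 and 1909 in C-20, with overlap (log2 difference 1.18, SE 0.39, adjusted p = 0.138). Pik3cb, a catalytic subunit of PI3K, was at 9.09, 12.2 and 8.71 FPKM in NTC and 6.49, 7.54 and 6.86 in C-20 (log2 difference −0.45, SE 0.17, adjusted p = 0.167).

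Outside the calls, the genes of largest difference with groups apart were Cth, Plk2, Myc, Gm7334 and Gadd45b on the lower side and Mmp10, Lypd3, Pthlh, Mmp3 and Sgk1 on the higher side. Cth, the cystathionine gamma-lyase of cysteine synthesis, was at 62.9, 67.8 and 55.3 FPKM in NTC and 3.9, 45.6 and 17.8 in C-20, spread widely over the C-20 libraries (log2 difference −1.95, SE 0.51, adjusted p = 0.102). Pthlh, parathyroid hormone-related protein, was at 0.666, 3.76 and 3.91 FPKM in NTC and 9.63, 6.81 and 14.4 in C-20 (log2 difference 1.68, SE 0.31, adjusted p = 0.0564). Sgk1, a kinase regulated by serum and glucocorticoids, was at 15.3, 30.5 and 26.9 FPKM in NTC and 115, 59.3 and 45.7 in C-20 (log2 difference 1.501, SE 0.33, adjusted p = 0.0741). Pdgfc, below the filter and picked after its values were seen, was at 0.546, 0.682 and 0.441 FPKM in NTC and 0.0216, 0.0361 and 0.00615 in C-20. The next genes in the order of p were Soat2 (−1.92) and Angptl2 (1.11), each at an adjusted p of 0.0532.

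Median differences varied with transcript length. With the 10492 tested genes that had a length in GENCODE (97.3%; the longest transcript of the gene) split into 3 equal classes, the median difference was 0.03, 0.01 and −0.05 from short to long in the fit. It was 0.05, 0.12 and 0.14 in the control pair, −0.075, −0.05 and −0.01 in the clone 2 pair and 0.12, −0.05 and −0.27 in the clone 3 pair. Of the 32 called genes with a length, 9 higher and 8 lower lay in the short class, 8 and 5 in the middle and 1 and 1 in the long class; the part of length in the calls was not tested. In the authors' deposited table of C-20 over NTC, which has 13414 genes and no pairing, the lowest adjusted p was 0.911 and 569 genes had a raw p under 0.05. That deposited table rests on the same NTC and C-20 libraries, so a like direction there is a description and no support. It listed 32 of the 33 called genes, all 32 in the same direction. Of these, 26 had a raw p under 0.05, beside the 569 of all 13414 genes.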

How the data were processed

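Per the labels' protocols, poly(A) RNA of 4T1 cells was read from both ends (100 nt, HiSeq2500). Per the submitters' processing notes, TopHat2 2.0.13, Bowtie2 2.2.3 and Cufflinks 2.2.1 were used with mm10. The authors deposited FPKM values of 24067 genes for 9 libraries. They also deposited, per the file headers, log2 values of FPKM + 1 after quantile normalization, with a signed fold score, raw and adjusted p-values for each pair of codes, which are quoted where the authors' deposited table is named. No read counts were used here, so depth and counting error are unknown.

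Genes that reached an FPKM of 1 in 3 libraries or more entered the test on log2(FPKM + 1) in limma 3.58.1 (R 4.3.3) with a mean-variance trend, code and leading number as terms and all 9 libraries in 1 fit. P-values were adjusted by Benjamini-Hochberg and called below 0.05. The leading number marks the title, so the block was kept as a pairing. Deviations from the mean of each code correlated at 0.26 to 0.883 between same-numbered libraries and at −0.899 to 0.427 between others. Taking off a code's mean lowers correlations within that code, so these values are a description and no support for the block. The NTC library titled control correlated more with the C-20 library titled clone 2 (0.325) than with the C-20 library titled control (0.26). The fit was checked on simulated data whose noise was independent between genes and between libraries. That check therefore does not cover deviations shared by the genes of a single library. Gene lists were described by counts and medians, without a set test. Members, lists and tests were chosen with earlier results of these data known. Named genes are all called genes, per list the called members and the 2 of largest difference that went 1 way in the 3 pairs, genes called against C-26 or without the block, Mir204, Trpm3 and Pik3cb, and the 5 uncalled genes a side of largest difference with groups apart; other genes named were picked after their values were seen. Alternatives were a fit without the block, a pseudocount of 0.1, 2 other filters, quantile and median ratio scaling, array weights, only the 2 codes compared, the authors' log2 values, and each library or title left out. Tables and figures used Python 3.11.15, pandas 2.3.3 and matplotlib 3.10.9.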

Additional observations from a re-analysis of the deposited data

Results flagged for a closer look

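Of the gene lists, 3 had medians of C-20 minus NTC beyond 0.2 on the log2(FPKM + 1) scale in opposite directions in different titles, a limit set after the values were seen. The differences between titles were not tested, since each title has 1 pair. Cholesterol synthesis genes were at 1.73 in the control pair, −0.26 in the clone 2 pair and 0.53 in the clone 3 pair. The Txnip, glucose uptake and glycolysis list was at 0.69, −0.24 and 0.31. PI3K pathway genes were at 0.21, 0.045 and −0.30. Groups of 3 libraries were not searched for outliers.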

How the results depend on the processing

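The 33 calls of C-20 against NTC became 2 without the block by leading number, which ignores the pairing by title. They became 10 with no filter (20025 genes tested, 3 of the 33 kept) and 99 with median ratio scaling. With array weights (whose estimation did not converge) there were 1710, and with the authors' quantile-normalized values 65. In that last fit 38.5% of calls were higher, against 57.6% as reported and 65.0% of 40 with quantile normalization. With only the 2 codes compared there were 23 calls, 18 of the 33 among them. A pseudocount of 0.1 kept 27 of the 33 among 33 calls, 69.7% of them higher. Leaving out 1 library gave 1 to 111 calls. The count was 111 without the NTC library titled control and 13 without the C-20 library titled control. It was 3 without the NTC library titled clone 2 and 66 without the C-20 library titled clone 2. Without the C-20 library titled clone 3 it was 1. It was 55 without the libraries titled control, 2 without those titled clone 2 and 0 without those titled clone 3. Without the libraries titled clone 3, 1688 genes had an unadjusted p under 0.05 in limma. An alternative added after the data were seen left out the C-20 libraries titled control and clone 2. It leaves 1 C-20 library, assumed to vary like the rest, and its median difference over all tested genes was −0.0049. The cause of these changes was not tested. The block by leading number changed no call of C-20 against C-26. The 2 calls there became 30 with array weights, 1 with the authors' values and 6 without the libraries titled control. Leaving out 1 library gave 2 to 9 calls, 9 without the NTC library titled control. Of 506 list medians under the alternatives, 480 moved by less than the spread between pairs and 26 by more. Read depth is unknown, so counting error could not be set against differences of genes near 1 FPKM.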
